A study of Homo sapiens with 8 samples.

Results

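Among 161291 union regions of open chromatin in U-937 cells, 18378 (11.4%) had a peak after all-trans retinoic acid (ATRA) and none after vehicle, after Corin or after ATRA together with Corin. These ATRA-only regions were obtained by merging overlapping peaks of 4 deposited peak lists on chromosomes 1 to 22, X and Y, and by keeping each merged region that a peak of the ATRA list overlapped and no peak of the other 3 lists overlapped. The regions were thus chosen by the presence or absence of called peaks, and the values behind those calls are given as a description, without a test. Accessibility was measured by ATAC-seq, in which a transposase inserts sequencing adapters into open DNA.

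U-937 is an established human myeloid leukaemia line with monocytic features, which the labels list as acute myeloid leukaemia cells. Cells were exposed for 24 h to DMSO (the vehicle), to ATRA, to Corin, or to both compounds, each at 0.1 µM, the figure that the labels also attach to DMSO. There were 8 libraries, 2 per treatment, and 1 peak list per treatment was used here, so that no value below carries an error between replicates. Called peaks stood at the promoters of 7 of 10 monocytic and myeloid marker genes with ATRA, among them SPI1, CEBPA, ITGAM and LYZ, while the promoters of CD14 and MPO had none with any treatment. Promoters of 2 of 4 T cell markers and 3 of 4 B cell markers were also called with ATRA, and of 4 erythroid markers none was.

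ATRA acts through retinoic acid receptors, which pair with retinoid X receptors on direct repeats of a hexamer and exchange corepressors for coactivators when the ligand binds. In myeloid leukaemia cells it is known as a differentiating agent, and PU.1, C/EBP and RUNX factors are the main sequence-specific regulators of the myeloid programme. Corin is a dual inhibitor directed at the CoREST complex, in which the demethylase LSD1 (gene KDM1A) and the deacetylases HDAC1 and HDAC2 sit on a shared scaffold.

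The sequences below are windows of 200 bases centred on the peak summit, on the plus strand of hg38, chosen because they show the letters that the ATRA-only regions carried or lacked. Capitals mark 1 match to the named motif, on either strand. The COL4A2, ZNF592, TSHR and SSH2 windows are the strongest eligible ATRA-only regions with a match to PU.1, to a PU.1-IRF composite, to IRF and to RUNX. The PDK1-AS1 window is from the strongest region and is also the strongest with a C/EBP match, and the IQSEC1 window is the strongest with an AP-1 match. The last 2 windows lie near CYP26A1, the gene of the main retinoic acid hydroxylase, and hold a direct repeat spaced by 5 bases (DR5), the classical retinoic acid response element. The first of the pair is ATRA-only, and the second was called with ATRA and with the combination but not with DMSO or Corin.
COL4A2 intron, PU.1, chr13:110449300-110449499: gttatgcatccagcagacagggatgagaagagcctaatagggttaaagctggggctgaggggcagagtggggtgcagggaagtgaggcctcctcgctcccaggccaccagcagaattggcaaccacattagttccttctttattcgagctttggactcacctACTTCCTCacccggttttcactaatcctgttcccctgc
ZNF592 intron, PU.1-IRF composite, chr15:84750697-84750896: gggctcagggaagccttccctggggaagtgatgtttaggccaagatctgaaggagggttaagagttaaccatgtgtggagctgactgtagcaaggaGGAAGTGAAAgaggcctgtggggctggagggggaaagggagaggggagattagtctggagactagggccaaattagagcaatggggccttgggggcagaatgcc
TSHR intron, IRF, chr14:81018347-81018546: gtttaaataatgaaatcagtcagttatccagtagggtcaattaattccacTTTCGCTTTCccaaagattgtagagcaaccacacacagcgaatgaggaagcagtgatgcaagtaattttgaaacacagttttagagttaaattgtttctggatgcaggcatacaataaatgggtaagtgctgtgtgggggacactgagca
SSH2 intron, RUNX, chr17:29789226-29789425: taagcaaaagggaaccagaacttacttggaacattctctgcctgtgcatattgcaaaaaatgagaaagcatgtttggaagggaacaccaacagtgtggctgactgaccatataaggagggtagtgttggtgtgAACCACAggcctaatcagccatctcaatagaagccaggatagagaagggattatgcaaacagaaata
PDK1-AS1 intron, C/EBP, chr2:172551344-172551543: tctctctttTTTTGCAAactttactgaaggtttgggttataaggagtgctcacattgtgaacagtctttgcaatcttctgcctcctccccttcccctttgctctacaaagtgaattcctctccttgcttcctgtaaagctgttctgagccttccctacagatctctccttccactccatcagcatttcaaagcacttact
IQSEC1 intron, AP-1, chr3:13004464-13004663: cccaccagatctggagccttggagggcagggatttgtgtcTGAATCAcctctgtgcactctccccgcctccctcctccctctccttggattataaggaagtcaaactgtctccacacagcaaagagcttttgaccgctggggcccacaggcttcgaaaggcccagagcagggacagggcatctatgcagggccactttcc
near CYP26A1, DR5, ATRA-only, chr10:93245797-93245996: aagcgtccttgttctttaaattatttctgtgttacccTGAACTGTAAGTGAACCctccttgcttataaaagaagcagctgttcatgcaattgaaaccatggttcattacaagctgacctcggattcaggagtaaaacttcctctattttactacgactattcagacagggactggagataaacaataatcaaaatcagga
near CYP26A1, DR5, also called with the combination, chr10:93150396-93150595: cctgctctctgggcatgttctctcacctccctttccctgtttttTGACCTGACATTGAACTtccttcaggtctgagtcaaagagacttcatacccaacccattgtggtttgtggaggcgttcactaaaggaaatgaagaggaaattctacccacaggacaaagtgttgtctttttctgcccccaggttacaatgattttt

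The DR5 window of the ATRA-only region lay 171861 bp from the start of CYP26A1, and its region reached a −log10 p (the peak caller's test of a peak against its local background, the authors' value) of 144 and stood 16.5 times over its background in the ATRA list. The DR5 window that was also called with the combination lay 76257 bp from the same start, at a −log10 p of 130 and 12.3 times its background in the ATRA list. The other 6 windows are intronic.

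Most ATRA regions that were missing from the vehicle list were also missing from both lists with Corin. Of 110695 union regions with an ATRA peak, 25755 (23.3%) had no peak with DMSO. Of these 25755, 18378 (71.4%) were in neither the Corin nor the combination list and are the ATRA-only regions, 16.6% of all regions with an ATRA peak. A further 5165 (20.1%) were called again with the combination and not with Corin, 676 (2.62%) with Corin and not with the combination, and 1536 (5.96%) with both. In the ATRA list, 31770 regions (28.7%) had no combination peak and 37762 (34.1%) had no Corin peak. For comparison, 16454 union regions (10.2%) were in the DMSO list alone, 12977 (8.05%) in the Corin list alone and 6343 (3.93%) in the combination list alone. With each list cut to the 94917 regions of the shortest list, taken by −log10 p, 10192 regions (10.7% of the list) were private to ATRA, 11957 (12.6%) to Corin, 9421 (9.93%) to the combination and 7518 (7.92%) to DMSO, so that the order of ATRA and Corin turned round.

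The ATRA-only regions were mostly weak peaks of the ATRA list. Their −log10 p ran from 2.08 to 579 with a median of 16.1 and an interquartile range of 10.3 to 26.6, and their fold over background ran from 1.22 to 22.2 with a median of 3.85. The median width was 272 bp, and 15023 of them (81.7%) held a single peak. In the ATRA list 17904 of them (97.4%) fell in the weaker 50% of regions and 1 fell in the strongest 20%. The 5165 regions called with ATRA and the combination alone had a median −log10 p of 35.9 and a median fold of 5.34 on the same list, and the 66303 regions in all 4 lists had medians of 186 and 11.8.

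Which of the 2 classes absent from DMSO and Corin was the more frequent differed with strength. In the weakest decile of the ATRA list, 5790 of 11070 regions (52.3%) were ATRA-only and 522 (4.72%) were shared with the combination alone. The ATRA-only share fell through 45.4%, 33.6%, 20.1% and 10.4% over the next 4 deciles, while the share kept by the combination alone went through 6.72%, 8.19%, 9.22% and 8.30%. In the sixth decile the order turned, with 371 ATRA-only regions (3.35%, 95% Wilson interval 3.03 to 3.70, counting error only) and 668 regions kept by the combination (6.03%, 5.61 to 6.49). In the seventh decile the counts were 93 and 292. The strongest decile held none of either (Wilson interval up to 0.0347%, counting error only), and 11062 of its 11069 regions (99.9%) were in all 4 lists.

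**Figure D1:**
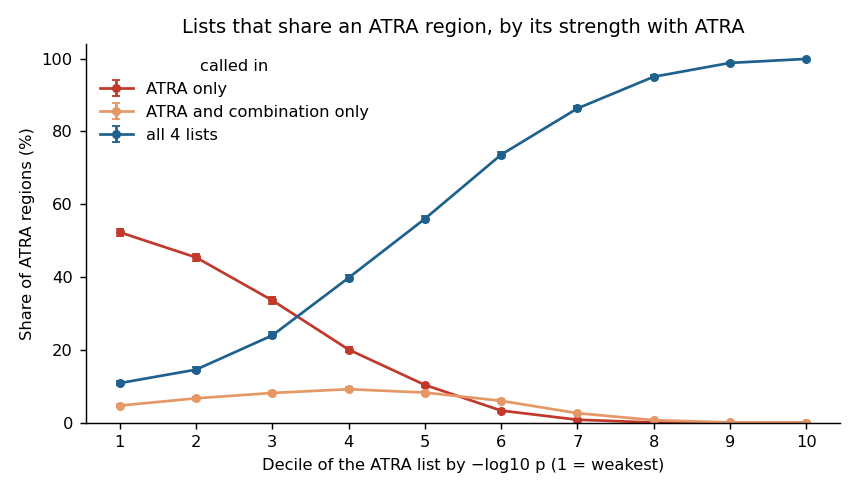
Share of ATRA regions (%, y axis) called with ATRA only, with ATRA and the combination only, or in all 4 lists, by decile of the ATRA list ranked by −log10 p (x axis, 1 is the weakest); bars are 95% Wilson intervals. The ATRA-only share falls from 52.3% to 0%, and passes below the share kept by the combination between the fifth decile (10.4% against 8.30%) and the sixth (3.35% against 6.03%).

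Several properties of the lists moved with these counts, and their part in the number of ATRA-only regions was not tested. The ATRA list had the lowest most frequent background, 9.12 reads, against 12.8 with DMSO, 13.14 with Corin and 13.94 with the combination, and the highest median fold, 4.80 against 3.47, 3.32 and 3.68. The number of reads behind each library is not given in the sources used here. The DMSO list ends at a −log10 p of 2.79 and its peak names run up to 300000, whereas the other lists reach 2.00, and 41 ATRA-only regions lay below the DMSO limit. The ATRA-only regions sat on the most frequent background in 11839 cases (64.4%) and on at least 2 times that background in 3127 (17.0%). Next to the limit of the rule, 10 ATRA-only regions came within 10 bp of another list's peak (median −log10 p 8.85), and 16 ATRA regions were left out for an overlap of 1 to 10 bp (median 9.55).

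Few ATRA-only regions lay at the edge of a peak of another list. The nearest peak of any of the other 3 lists was a median of 3784 bp away. It was within 150 bp for 809 ATRA-only regions (4.4%), within 500 bp for 2584 (14.1%) and within 10 kb for 13743 (74.8%), and 817 regions (4.45%) had none within 50 kb. The distance was much the same to each list, with medians of 4934 bp to DMSO peaks, 5931 bp to Corin peaks and 6208 bp to combination peaks.

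The strongest ATRA-only regions were scattered over many chromosomes. Of the 20 with the highest −log10 p outside chromosome 8, 11 were in introns, 4 at promoters, 2 in exons and 3 between genes, and 9 sat on a background of 2 or more times the most frequent one. The very strongest, at chr2:172551319-172551552 in an intron of PDK1-AS1 near PDK1, a kinase of the pyruvate dehydrogenase complex, reached a −log10 p of 579 at 3.10 times its local level, on a background 103 times the most frequent one. On ordinary background the leading region was chr17:29789002-29789761, in an intron of SSH2, a phosphatase that activates the actin-severing protein cofilin, at a −log10 p of 260, 22.2 times its background, from a summit of 266 reads. It was 9258 bp from the nearest peak of another list, and its window above shows the RUNX match. The promoter region of KCNMA1, the pore subunit of the large-conductance calcium-activated potassium channel, followed at chr10:77079582-77080612, at a −log10 p of 237, 17.9 times its background, with no other list's peak within 31344 bp. Intronic regions of CPB2 (a plasma carboxypeptidase), SCP2 (sterol carrier protein), TSHR (the thyrotropin receptor) and PARD3B (a cell polarity protein) had −log10 p of 207, 204, 203 and 186, folds of 19.7 to 21.0 and backgrounds within 1.03 times the most frequent one. The region of PARD3B lay 114068 bp from any peak of another list. The intronic region of COL4A2, a collagen IV chain, had a −log10 p of 205 on 2.34 times the most frequent background, and the promoter region of GRB10, an adaptor of growth factor receptors, 213 on 7.14 times that background. RUNX was found in 7 of the 20 windows, C/EBP in 6, PU.1 in 2 and AP-1 in 0, and 8 held none of the 24 motifs searched. Over all ATRA-only windows the shares were 9.03%, 17.9%, 11.9% and 5.43% in the same order, and 41.9% held none. Over all union windows they were 8.32%, 14.5%, 6.87% and 11.7%. With 20 windows, differences from these shares were not tested.

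ATRA-only regions lay away from promoters. Any part of a region could lie within the limit used here, which favours wide regions. Median width was 272 bp for ATRA-only regions and 897 bp for those in all 4 lists, and the part of width was not tested. Within 1 kb of an annotated transcript start there were 2226 of them (12.1%, 11.6 to 12.6), against 20.7% of all union regions, 30.2% of those in all 4 lists, 15.4% of the DMSO-only and 12.7% (11.8 to 13.6) of those kept by the combination. Introns held 9837 (53.5%, 52.8 to 54.2), close to the 52.1% (50.7 to 53.4) of regions kept by the combination. The intron share was 43.6% of all union regions, 45.9% of DMSO-only and 47.4% of Corin-only regions. Between genes lay 5110 ATRA-only regions (27.8%). The gap at promoters was smaller at matched strength: promoters made up 11.2% (10.6 to 11.8) of ATRA-only and 14.6% (13.9 to 15.2) of the other ATRA regions in the weakest 2 deciles of the ATRA list. In the third and the fourth deciles the shares were 12.9% and 14.1%, and in the fifth and the sixth 15.4% and 16.1%, with overlapping intervals in both. ATRA-only regions on less than 2 times the most frequent background had a promoter share of 9.52%. Median GC content of the summit windows was 43.5%, close to the 43.0% of regions kept by the combination and below the 53.5%, 52.5% and 54.5% of regions private to DMSO, Corin and the combination.

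Like the regions private to each other list, ATRA-only regions often had a neighbour of their own class. For 3035 of them (16.5%, 16 to 17.1) the nearest union region was also ATRA-only, against 11.5% over all union regions, and for 1472 (8.01%) it was a DMSO-only region, against 10.1%. The nearest region was of the same class for 17.0% of DMSO-only regions (10.1% over all union regions), 12.5% of Corin-only regions (8.07%) and 12.2% of combination-only regions (4.08%). In order along the chromosomes, 13310 stood alone, 1853 runs had 2 in a row, and the longest runs, 2 of them, had 6. Neighbouring regions share their stretch of chromosome and their copy number, and are not independent.

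A PU.1 consensus (GAGGAAGT, either strand) was found in 2179 ATRA-only windows (11.9%, 11.4 to 12.3). It was in 6.87% of all union windows, in 7.82% of those in all 4 lists, in 2.22% (2.01 to 2.46) of DMSO-only windows and in 1.47% of Corin-only windows. The regions kept by the combination had a higher share, 15.5% (14.5 to 16.5). The same letters read backwards, a check on base composition, occurred in 1.40% of ATRA-only windows and 1.34% of DMSO-only windows. Since ATRA-only windows are poorer in GC, shares were also read within classes of GC content: over the 5 classes the PU.1 share ran from 9.56% to 12.6% in ATRA-only windows and from 1.84% to 2.83% in DMSO-only windows. Windows in all 4 lists were closer, with 9.93% against 11.4% in ATRA-only windows in the class poorest in GC, 9.57% against 12.2% in the next, and 4.78% against 9.56% in the class richest in GC. At matched strength the PU.1 share of ATRA-only windows was 10.4% in the weakest 2 deciles of the ATRA list and 14% in the third and the fourth, against 6.09% and 7.79% of the other ATRA regions of those deciles. Among these others, windows in all 4 lists had 4.32% and 4.92%, and windows kept by the combination alone 12.1% (10.4 to 14) and 16% (14.4 to 17.7). Strength was matched within the ATRA list alone. Regions private to DMSO, Corin and the combination had median −log10 p of 6.7, 5.95 and 5.81 in their own lists, against 16.1 for ATRA-only regions. The part of strength in the motif contrasts with those regions was not tested.

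C/EBP and RUNX letters were common in the ATRA-only regions, at shares near those of other ATRA regions in the weakest 2 deciles. The C/EBP consensus (TTGCNNAA) was in 3295 ATRA-only windows (17.9%), against 14.5% of all union windows, 16.6% of those in all 4 lists and 8.73% of DMSO-only windows. Within classes of GC content the order to all 4 lists turned round in 4 of 5: in the class poorest in GC the C/EBP share was 24.0% in ATRA-only windows, 30.2% in windows of all 4 lists and 20.3% in DMSO-only windows, and in the next class 20.4%, 25.4% and 19.1%. In the weakest 2 deciles of the ATRA list it was in 18.0% (17.3 to 18.7) of ATRA-only and 17.1% (16.4 to 17.8) of other windows. The RUNX consensus (TGTGGTT) was in 1659 (9.03%), against 8.32% of all union windows and 9.90% of those in all 4 lists, and in 9.31% of ATRA-only and 9.15% of other windows of the weakest 2 deciles. In the class poorest in GC the RUNX share was 10.1% in ATRA-only windows, 14.6% in windows of all 4 lists and 8.59% in DMSO-only windows. The IRF motif, a repeated half-site bound by interferon regulatory factors, was in 6.67% of ATRA-only windows against 3.14% of all. Its reversed letters were in 5.08% and 2.58%. Windows kept by the combination had an IRF share of 7.30% (6.62 to 8.04). In the class poorest in GC the IRF share was 9.71% in ATRA-only windows and 6.5% in windows of all 4 lists. In the class richest in GC these shares were 2.29% and 1.14%. At matched strength the IRF share was 5.72% in ATRA-only and 2.93% in other windows of the weakest 2 deciles, and 7.77% and 3.54% in the third and the fourth. The PU.1-IRF composite was in 910 windows (4.95%, 4.65 to 5.27), against 2.89% of all union windows, with reversed letters in 2.66% and 1.85%. Windows kept by the combination had a composite share of 4.03% (3.52 to 4.6). In the class poorest in GC it was 5.44% (4.86 to 6.09) in ATRA-only windows and 4.51% (4.06 to 5.01) in windows of all 4 lists.

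The AP-1 consensus (TGANTCA), bound by FOS and JUN family dimers, was scarce. It was in 998 ATRA-only windows (5.43%, 5.11 to 5.77), barely more than its reversed letters (5%), against 11.7% of all union windows, 12.5% of those in all 4 lists and 21.0% (20.3 to 21.7) of Corin-only windows. The windows kept by the combination had 5.92% (5.31 to 6.6), and combination-only windows had a like share, 5.77% (5.22 to 6.37). DMSO-only windows had 8.11%. In the weakest 2 deciles of the ATRA list the share was 5.61% in ATRA-only windows and 14.2% in the others, and in the third and the fourth 5.38% and 11.7%. Windows with CTCF letters (an insulator protein) made up 1.82% against 5.47% of all, and windows with the GC-box letters of KLF and SP factors (GGGCGG) 2.94% against 11.3%. The CTCF share was also low in Corin-only (1.47%), combination-only (1.91%) and combination-kept windows (1.97%). It was 4.50% in DMSO-only windows and 8.39% in those of all 4 lists. The GC box had a reversed share of 3.68% in ATRA-only windows, above the share of the box itself.

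**Figure D2:**
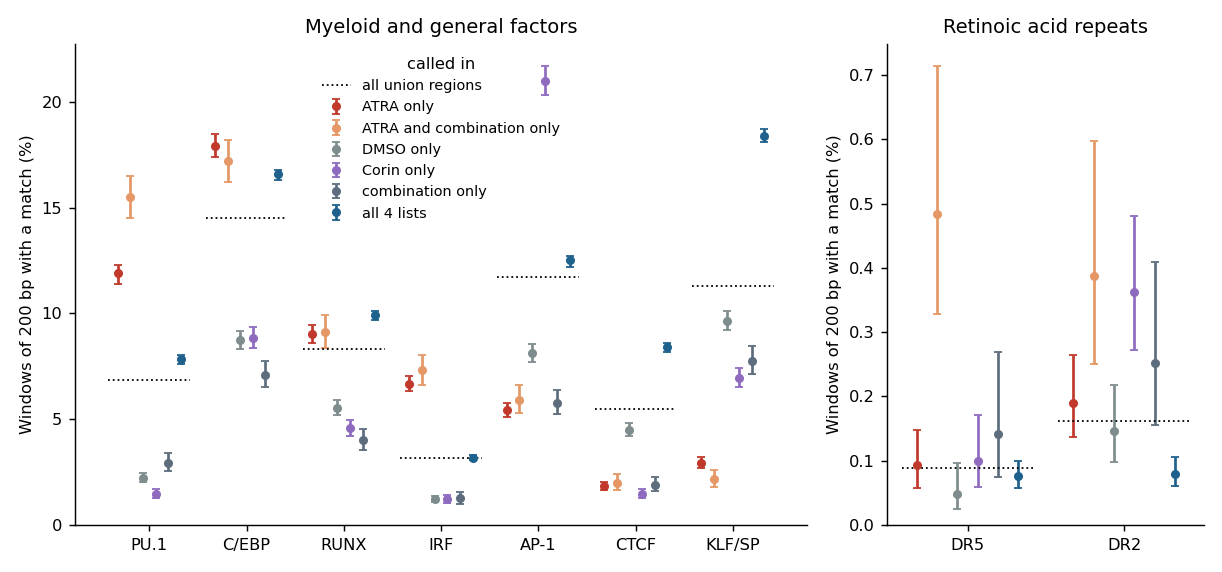
Share of 200-bp summit windows with a motif match (%, y axis) by motif (x axis) and by the lists in which a region was called; points are shares, bars are 95% Wilson intervals and dotted lines are all union regions, and the 2 panels have different scales. ATRA-only windows (red) stand at 11.9% for PU.1 and 5.43% for AP-1, where Corin-only windows stand at 1.47% and 21.0%. Combination-only windows stand at 2.95% and 5.77%. The DR5 share is highest in regions kept by the combination (0.484%).

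Matches to the PU.1 consensus were gathered at the summits. Per 20-bp bin, 1.85% of ATRA-only regions had a PU.1 match within 60 bp of the summit and 0.11% beyond 300 bp, a ratio of 16.7. The ratio was 22.3 in regions kept by the combination, 10.6 in those of all 4 lists and 2.88 in DMSO-only regions. DMSO-only regions were weaker peaks (median −log10 p 6.7 in their own list, against 16.1), and the part of strength was not tested. RUNX and C/EBP matches were centred to a lesser degree, with ratios of 3.29 and 2.06 in ATRA-only regions and 3.83 and 2.00 in regions of all 4 lists. IRF matches had a ratio of 2.23 in ATRA-only regions, 2.75 in regions kept by the combination, 0.993 in those of all 4 lists and 0.361 in DMSO-only regions. AP-1 matches had no central peak in ATRA-only regions (ratio 0.817), while the ratio was 1.64 in DMSO-only regions and 2.73 in those of all 4 lists.

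**Figure D3:**
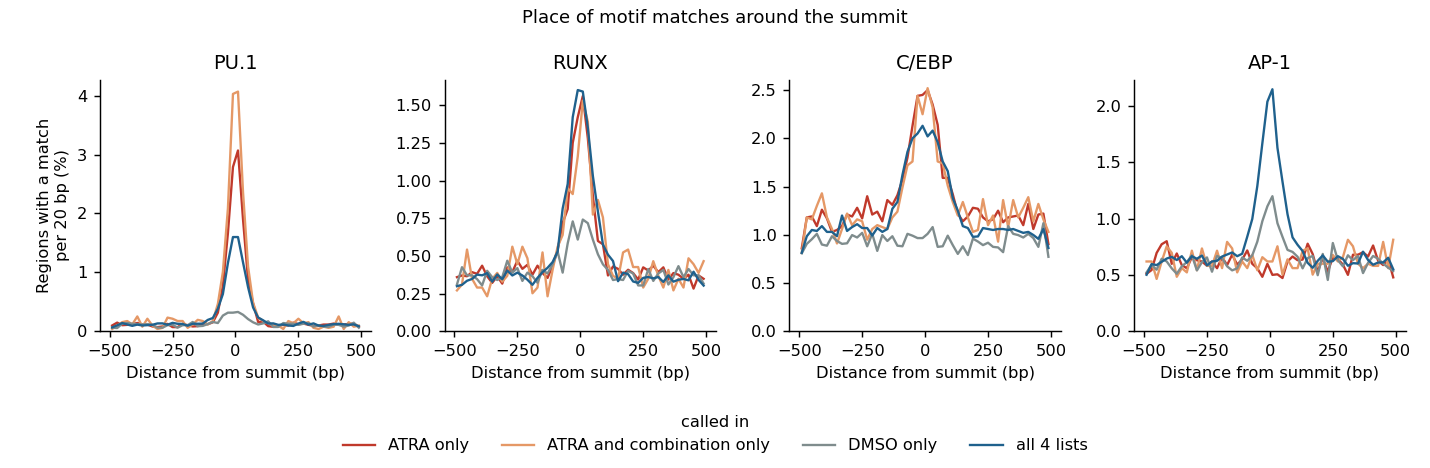
Share of regions with a motif match per 20-bp bin (%, y axis, with a scale of its own in each panel) against distance from the summit (bp, x axis) for PU.1, RUNX, C/EBP and AP-1, by the lists in which regions were called. ATRA-only regions (red) have a central PU.1 peak (1.85% per bin near the summit, 0.11% in the flanks) and no central AP-1 peak (0.521% against 0.637%).

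Retinoic acid receptor repeats were rare in the ATRA-only regions. A DR5, made of a pair of AGGTCA hexamers with A or G allowed as the first base and G or T as the third, was in 17 windows (0.0925%, 0.0578 to 0.148), against 0.0887% of all union windows and 0.0843% for the reversed letters in all. In the regions kept by the combination there were 25 in 5165 windows (0.484%, 0.328 to 0.714), so that the smaller class held the larger number. A repeat spaced by 2 bases, another receptor element, was in 35 ATRA-only windows (0.190%, 0.137 to 0.265), 20 windows kept by the combination (0.387%, 0.251 to 0.597) and 0.161% of all. This repeat was also in 47 Corin-only windows (0.362%, 0.272 to 0.481), in 0.252% of combination-only windows and in 0.146% of DMSO-only windows. Repetitive elements of the genome were not masked. Besides the region near CYP26A1, the DR5 windows with the highest −log10 p were in introns of MTERF1 (77.6), of a non-coding gene near DLG1 (71.2) and of RGS9 (58.7), a regulator of G-protein signalling.

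Among the genes of the retinoid pathway, 18 of 181 union regions within 10 kb of 20 retinoic acid response genes were ATRA-only (9.94%, 6.38 to 15.2, against 11.4% of all union regions), and 14 were kept by the combination. They lay near 9 of the 20 genes, where 8254 of all 20007 protein-coding genes (41.3%) had an ATRA-only region within 10 kb. On less than 2 times the most frequent background there were 10 of the 18. CD38, an ectoenzyme that ATRA is known to raise in myeloid cells, had 5 in 12 union regions, with −log10 p of 6.41 to 19.9 and folds of 2.73 to 4.25. RARB, a receptor gene and itself a classical target, had 3 in 35, all in introns, with −log10 p of 15.5, 16.7 and 21.6. DHRS3, a retinal reductase, had 3 in 16, with values of 7.80, 14.1 and 23. STRA6, the retinol uptake receptor, had 2 in 11, the stronger at 32.9 with a PU.1-IRF composite. DHRS9, a retinol dehydrogenase, had 1 exonic region at 42.6, on 2.64 times the most frequent background. RARA, the main retinoic acid receptor of myeloid cells, had 1 at 47.2, at an internal transcript start 8377 bp into the gene. The RARA region had a fold of 2.77 on 10.7 times the most frequent background, 123 bp from a peak of another list. Around receptors and their cofactors the share was 25 of 212 (11.8%).

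Genes of the CoREST complex, the target of Corin, had the highest share of the 14 lists, 25 of 149 union regions (16.8%, 11.6 to 23.6). Over all union regions the share was 11.4%, and the difference was not tested. The 25 regions lay near 9 of 11 genes, where 41.3% of all protein-coding genes had an ATRA-only region within 10 kb. KDM1A had 3 in 7, with −log10 p of 31.0, 35.0 and 41.3, and the last was at an internal start at chr1:23071681-23072152. The first of these was on 7.9 times the most frequent background, and the others were on the most frequent one. RCOR1, the scaffold CoREST1, had 6 in 20, with a highest −log10 p of 14, and PHF21A, a reader of unmethylated histone H3, had 4 in 13 with a highest value of 66.9. The strongest was the region in an exon of HDAC1 at chr1:32316102-32316776, at a −log10 p of 102, 13.1 times an ordinary background. A region near HDAC2 reached 70.6.

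Shares near myeloid regulators and effectors lay on both sides of the background. Around 18 myeloid transcription factor genes 22 of 218 regions (10.1%) were ATRA-only, 10 of them near RUNX1. IRF8 and CEBPA had 3 in 15 and 2 in 6, with highest −log10 p of 39.1 and 27.9. The IRF8 region at 39.1 was on 2.43 times the most frequent background, 129 bp from a peak of another list. The CEBPA regions were on 18.1 and 17.7 times the most frequent background, and the stronger lay 110 bp from a peak of another list. Differentiation genes had 12 in 168 (7.14%, 4.13 to 12.1): the strongest, at 80.0, lay within the bodies of the formyl peptide receptor genes FPR1 and FPR2, on 3.27 times the most frequent background, and another at 47.9 lay 5556 bp upstream of CD33, a sialic acid receptor of myeloid cells, and held a PU.1 match. Among NADPH oxidase genes the share was 6 of 46 (13.0%).

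The lowest shares were near inflammatory genes, 3 of 79 (3.8%, 1.3 to 10.6), and AP-1 factor genes, 4 of 74 (5.41%, 2.12 to 13.1). At NLRP3, the inflammasome sensor, an internal promoter region reached 77.6 on 12.2 times the most frequent background. Interferon-stimulated genes had 8 in 96 (8.33%), with 68.3 at IFIT3, in a window that held IRF, PU.1-IRF and RUNX letters, on 3.52 times the most frequent background. In the chemotaxis and adhesion list, 11 of 122 (9.02%), VCAM1, an adhesion receptor for α4 integrins, was the densest: each of the 3 union regions within 10 kb of it was ATRA-only. They lay 7855 and 968 bp before and 1970 bp after its start, with −log10 p of 12.1, 47.9 and 15.4, all on the most frequent background, and no peak of another list was within 45299 bp. Cell cycle genes had 12 in 127 (9.45%), erythroid genes 3 in 42 (7.14%), lymphoid genes 12 in 106 (11.3%) and neuronal genes 18 in 130 (13.8%). None of these shares was tested against the background. The intervals of 12 of the 14 lists hold 11.4%, that of the CoREST complex starts at 11.6% and that of the inflammatory genes ends at 10.6%. These intervals treat neighbouring regions as independent, which they are not, and make no allowance for reading 14 lists. The lists were also chosen with earlier results known, so that no list can be called different from the background.

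**Figure D4:**
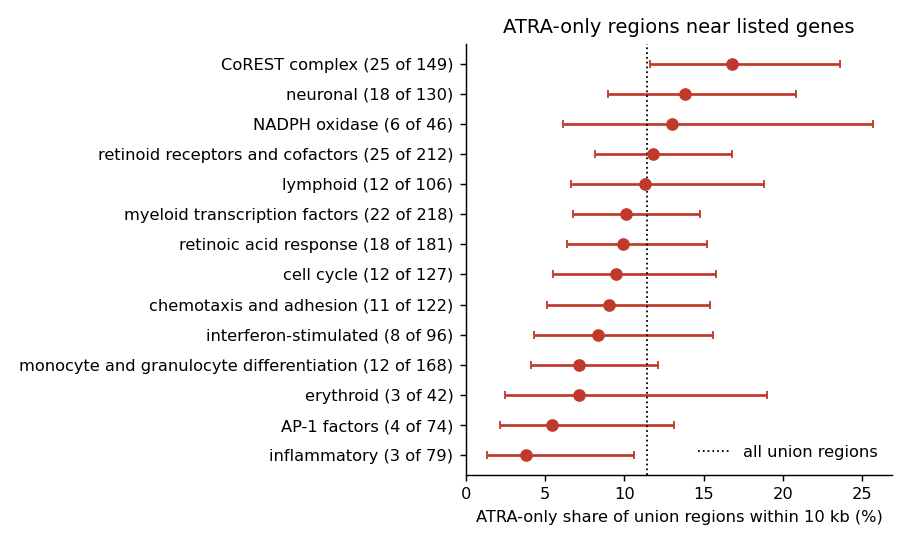
ATRA-only share (%, x axis) of the union regions within 10 kb of the genes of 14 lists (y axis, with counts); points are shares, bars are 95% Wilson intervals and the dotted line is the 11.4% of all union regions. The CoREST list lies highest at 16.8% and the inflammatory list lowest at 3.8%.

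Large genes collected the most ATRA-only regions. Of 20007 protein-coding genes, 8254 (41.3%) had at least 1 within 10 kb and 470 had 5 or more. The 5 genes named next were picked for having the most, a choice that favours high shares. Over all union regions the share was 11.4%. PDE4D, a cAMP phosphodiesterase gene of 1553 kb, had 16 in 57 union regions (28.1%), with −log10 p from 4.52 to 113. FRMD4A, a cytoskeletal scaffold gene, had 15 in 58 (25.9%), PHACTR1, a regulator of protein phosphatase 1 and actin, 15 in 47 (31.9%), PLCB1, a phospholipase C gene, 15 in 70 (21.4%), and ATXN1, a transcriptional corepressor gene, 14 in 58 (24.1%), a number that 3 other genes shared. At these 5 genes 20, 24, 17, 32 and 29 of the union regions were in all 4 lists, and 2 to 4 were kept by the combination.

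**Figure D5:**
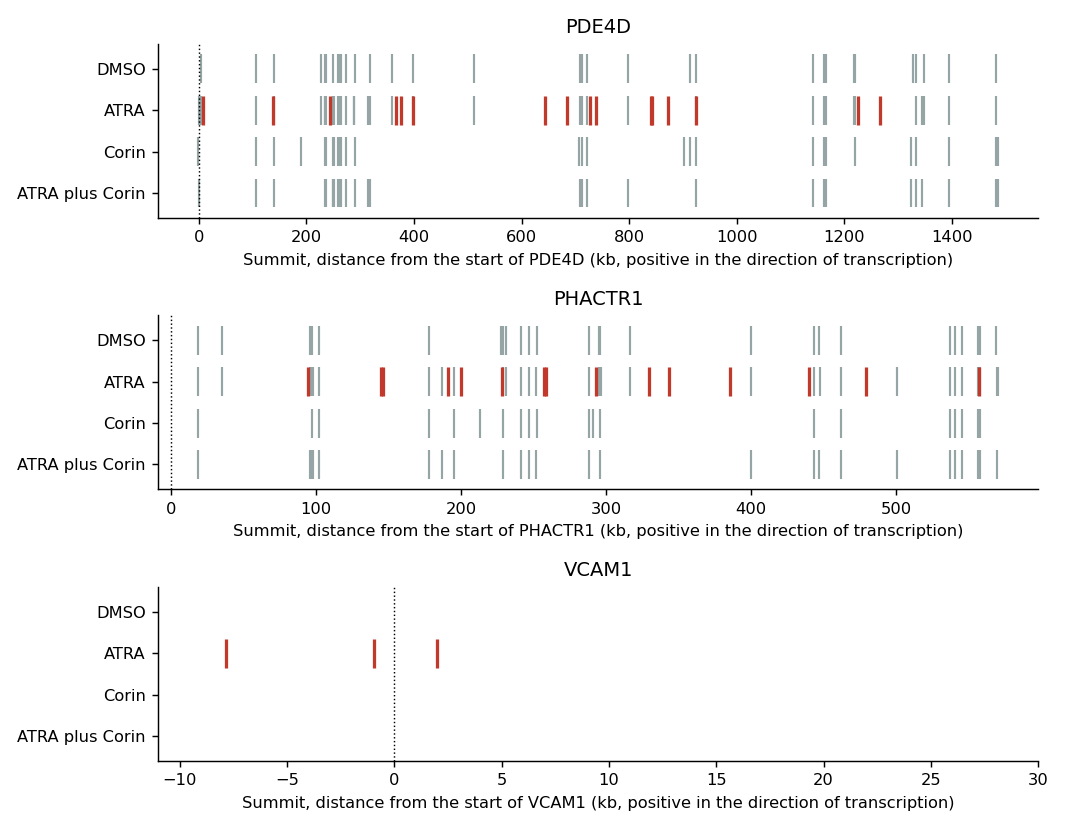
Positions of called regions along PDE4D, PHACTR1 and VCAM1 (x axis, kb from the start of the gene; rows are the 4 peak lists), with ATRA-only regions in red and other regions in grey. ATRA-only regions are spread among shared ones at PDE4D (16 of 57) and PHACTR1 (15 of 47), and make up all 3 at VCAM1, where the other rows are empty.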

How the data were processed

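The 4 deposited narrowPeak lists, 1 for each treatment, were used. Per the submitters' processing notes, the tools were cutadapt, Bowtie2, SAMtools, Picard and MACS2 and the build was hg38; versions, limits and the way the 2 libraries of a treatment were joined are not given in the sources used here. The lists held 222491 (DMSO), 222110 (ATRA), 189896 (Corin) and 197548 (combination) peaks. Each deposited peak has a display score, a fold over background (a ratio), and −log10 p and −log10 q as the authors' caller gave them. These values describe or rank peaks within 1 list.

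Peaks were merged with Python 3.11.15, numpy 2.4.6 and pandas 2.3.3, and the number of ATRA-only regions was recounted with bedtools 2.31.1. The strongest peak gave a region its values. Solving p and fold for the reads at the summit gave whole numbers, within 0.05, for 99.96% to 99.98% of peaks, which also yields the background in reads. Genes and transcript starts came from GENCODE release 44 (promoter: any part of the region within 1 kb of a start). The 24 consensus motifs were searched on both strands of 200-bp summit windows read from hg38. Of the 24 motifs, those not named gave no result used here. Beside shares stand 95% Wilson intervals, for counting error alone; with 1 list per treatment, no test was possible. The steps were tested on simulated data.

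The regions, the gene lists and the motifs were chosen with earlier results of these data known. Named are the 20 ATRA-only regions with the highest −log10 p outside chromosome 8, up to 8 genes per list by their strongest region within 10 kb, and the 5 protein-coding genes with most regions. Windows printed are the strongest with each of several motifs; those for CTCF and for repeats spaced by 1 or 2 bases are not shown. Results for some of the genes that this rule picks are not reported here.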

Additional observations from a re-analysis of the deposited data

How the results depend on the processing

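No paired analysis was possible because each treatment has 1 peak list, which also means that no library could be left out in turn. Lists cut to equal length by −log10 p or by fold gave 10192 or 11366 ATRA-only regions instead of 18378, by construction from fewer regions; the other 9 alternatives stayed within 1.5 times. Near the retinoic acid response genes, 18 became 9 and 7 in these shorter lists, 10 on less than 2 times the most frequent background, and 48 within 50 kb (of 384 union regions, 12.5%). The promoter share of 12.1% became 12.9% and 9.75% with equal lengths, 9.52% on less than 2 times the most frequent background, 10.0% with no other peak within 500 bp, 10.9% with peaks within 150 bp merged, 22.6% with a limit of 2.5 kb (all union regions 30.5%) and 4.88% with protein-coding transcripts alone. The PU.1 share of 11.9% became 12.4% with a −log10 q of at least 5, 13.5% and 13.8% with equal lengths, 12.5% with no other peak within 500 bp, 12.8% in 400-bp windows (all union regions 7.97%) and 1.40% with reversed letters. The AP-1 share of 5.43% became 5% with reversed letters and 11.2% in 400-bp windows (all union regions 17.1%), and 11 of 13 alternatives stayed in its interval. The wider windows and limits, the protein-coding transcripts and the reversed letters were applied to the same 18378 regions, and the other moves come from other sets of regions; the cause was not tested. The limit at the lowest DMSO value and the background limit were chosen after seeing the data. The files hold the 24 main chromosomes, so that using all their sequences changed nothing in the 5 results. Depth is unknown and limits what an absent peak can show.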

Other observations

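Chromosomes differed in their share of ATRA-only regions. Leaving out the Y, which had 0 of 3 union regions, it was highest on chromosome 4 (1012 of 6548 union regions, 15.5%, 14.6 to 16.4), chromosome 5 (14.9%) and the X (14.1%), and lowest on chromosome 19 (394 of 6058, 6.50%, 5.91 to 7.15) and chromosome 13 (7.71%). Gene density, GC content and copy number also differ between chromosomes, and their part in this was not tested.

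The 8-letter words found in at least 0.5% of ATRA-only windows were ranked by their ratio to all union windows, and the words named here were picked after their values were seen. ATAAGGAA was in 3.11% of ATRA-only windows against 1.39% of all, AAGTGAAA in 5.44% against 2.51%, and ATGAGGAA in 7.50% against 3.74%. The last was in 9.29% of windows kept by the combination and in 1.25% of DMSO-only windows. Its reversed letters were in 0.74% of ATRA-only windows and 0.526% of all. The reversed letters of AAGTGAAA were in 3.49% and 1.66%, a contrast like that of the word itself, and those of ATAAGGAA in 1.08% and 0.593%. AATAAGGA (2.36% against 1.05%) had the highest ratio together with ATAAGGAA, words rich in A and T such as GTAAATTA (1.26% against 0.569%) were also among the first, and ATRA-only windows are poorer in GC than the rest. At least 1 match to 5 myeloid motifs was found in 7850 ATRA-only windows (42.7%), against 45% of windows kept by the combination, 34.6% of windows in all 4 lists and 17.7% of DMSO-only windows. None of the 24 motifs was found in 7692 ATRA-only windows (41.9%), against 39.8%, 29.7% and 55.5% in the same 3 classes.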
